A study of Mus musculus with 30 samples.

Results

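The genes described here encode fast-fibre forms of sarcomere proteins, apart from the regulator Smtnl1. They are the light chains Myl1 and Mylpf, the troponin subunits Tnnt3, Tnni2 and Tnnc2, the tropomyosin Tpm1, and Mybpc2, Actn3, Myoz1 and Smtnl1. They were chosen by name, 10 of the 47643 gene symbols in the deposited expression table, by a rule that uses no measured value, although the list of names was drawn up with earlier results of these data known. They were read in 30 libraries of tibialis anterior, a predominantly fast muscle of the shin, from male C57BL6/J mice, in TPM, a measure of transcript abundance scaled for gene length and for the total of each library. Old mice were aged 24 months (n = 3) and young mice 6 months (n = 3). Mice given dexamethasone, a synthetic glucocorticoid, had their own control (n = 4 each), as did mice with LLC cancer (n = 4 each), where the labels give only the abbreviation. Muscles given Cyr61 siRNA were set against muscles given NT siRNA (n = 4 each), an abbreviation that the labels do not spell out. The labels used here give no dose, duration, tumour load or, outside the first pair, age. The samples are called biological replicates in the labels without saying that each is a separate animal, so p-values measure the spread between these samples.

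Muscle contracts when calcium binds troponin C, troponin I lets go of actin, and tropomyosin, held by troponin T, moves off the sites that myosin heads bind. Fast and slow fibres carry these parts from separate genes, so a fast gene and its slow paralog together report fibre character. Actn2, which all fibres carry, and Smtnl2 are paralogs of Actn3 and Smtnl1 without being slow-fibre forms. Mybpc1, the paralog of Mybpc2, averaged 1018 TPM over these libraries, against 14.7 to 19.8 TPM for the slow troponins Tnni1, Tnnt1 and Tnnc1. It is therefore not read as a marker of slow fibres. Each myosin head carries an essential light chain (Myl1) and a regulatory light chain (Mylpf), the latter phosphorylated by the kinase Mylk2. Mybpc2 is the fast myosin-binding protein C of the thick filament. Actn3 (alpha-actinin-3) and Myoz1 (calsarcin-2, which binds calcineurin) belong to the Z-disc rather than to either filament, and Smtnl1 is a smoothelin-like regulator, not a filament subunit.

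Promoter windows from RefSeq (build GRCm38.p6, 250 bases before to 50 after the start) matched 6 of the 10 genes: Myl1, Mylpf, Tnnc2, Tpm1, Mybpc2 and Smtnl1. Tnnt3, Tnni2, Actn3 and Myoz1 had no entry. The windows of the 4 matched genes whose values differed most between the groups below are printed on the gene's own strand, with each E-box (CANNTG, the core bound by the MyoD family) in capitals. They lie at chr1:66945007-66945306 on the minus strand for Myl1, chr7:127211358-127211657 on the plus strand for Mylpf, chr9:67049164-67049463 on the minus strand for Tpm1 and chr2:84822603-84822902 on the minus strand for Smtnl1.
Myl1: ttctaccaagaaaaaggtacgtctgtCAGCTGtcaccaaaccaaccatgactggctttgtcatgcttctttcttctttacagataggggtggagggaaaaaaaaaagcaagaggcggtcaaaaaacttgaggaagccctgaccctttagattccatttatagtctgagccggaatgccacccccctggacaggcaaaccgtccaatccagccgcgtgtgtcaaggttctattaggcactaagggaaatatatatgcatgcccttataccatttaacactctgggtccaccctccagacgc
Mylpf: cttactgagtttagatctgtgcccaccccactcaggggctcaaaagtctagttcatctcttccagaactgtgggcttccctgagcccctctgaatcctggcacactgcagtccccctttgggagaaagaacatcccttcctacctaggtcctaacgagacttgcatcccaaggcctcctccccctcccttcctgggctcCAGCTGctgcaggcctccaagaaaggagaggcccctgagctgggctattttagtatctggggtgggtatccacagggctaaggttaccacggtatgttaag
Tpm1: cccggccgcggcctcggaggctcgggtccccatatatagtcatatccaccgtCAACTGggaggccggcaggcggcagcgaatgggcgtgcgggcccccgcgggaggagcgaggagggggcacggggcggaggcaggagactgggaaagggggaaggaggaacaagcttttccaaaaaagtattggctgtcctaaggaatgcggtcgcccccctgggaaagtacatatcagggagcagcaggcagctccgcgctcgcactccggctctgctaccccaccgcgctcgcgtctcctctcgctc
Smtnl1: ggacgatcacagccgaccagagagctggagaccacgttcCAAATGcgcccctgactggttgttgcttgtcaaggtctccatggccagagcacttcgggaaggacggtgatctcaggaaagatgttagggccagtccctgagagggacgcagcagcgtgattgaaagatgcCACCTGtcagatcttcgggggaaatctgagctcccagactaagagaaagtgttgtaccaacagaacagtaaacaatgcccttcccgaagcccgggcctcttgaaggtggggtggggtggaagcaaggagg
An E-box stood in 6 of the 6 windows, and in 72.3% of all 32851 promoters of that length, so holding a match sets the genes little apart. The light chain genes both held the form CAGCTG, which starts at base -224 in Myl1 and at base -51 in Mylpf, counted from the start, and which occurs in 16.3% of promoters. The letters TGTTCT, a half-site of the glucocorticoid response element, were found on the opposite strand in Mylpf (base -124) and Smtnl1 (base -19), against 19.0% of promoters. Smtnl1 also held TGTTTAC, the FoxO core, on the opposite strand at base -13 (3.65% of promoters), and these letters overlap none of its E-boxes. Each motif was searched on both strands. TATAAA was found in Myl1 only, on the opposite strand at base -95 (13.6% of promoters). The MEF2 and CArG motifs and the MEF3 core TCAGGTT matched in 0 of the 6 windows, against 3.19%, 1.63% and 4.07% of promoters. These are matches of letters in a short window and say nothing of what binds there. The Mylpf and Myl1 windows lie wholly inside the spans that GENCODE gives these genes, whose first annotated bases are further upstream.

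Muscle fibre markers (Acta1, Ckm, Des, Ttn and Mb) summed to between 29290 and 59147 TPM per library, as the tissue label would have it, and none was at 0. Mitochondrially encoded genes took a large and variable share of the TPM: 37.9% ± 3.17 (SD, n = 4) with dexamethasone against 48.7% ± 2.09 (n = 4) in its control, and 50.9% ± 6.46 (n = 4) in LLC against 45.9% ± 3.01 (n = 4). The library LLC 3 stood apart, at 60.4%. TPM sums to 1000000 in every library, so every nuclear gene moves when that share does: the median gene stood 0.33 higher on the log2 scale with dexamethasone, and 0.02 higher after median-of-ratios scaling, which centres each library on the typical gene. The main results are therefore given on both scales. Cyr61, the target of the siRNA, stood at 32.9, 52.8, 45.8 and 25.5 TPM in the 4 Cyr61 siRNA libraries and at 57.0, 64.6, 67.8 and 36.8 TPM in the 4 NT siRNA libraries, so the groups overlapped.

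The genes were among the most abundant of the muscle. Over the 30 libraries the mean levels, in TPM and so per length, were 18850.2 for Tnnt3, 14976 for Tnnc2 and 13712 for Mylpf, the second to the fourth highest of the genes not encoded by mitochondria. Tnni2 (7666 TPM) and Myl1 (6679.5 TPM) came 9th and 10th. Actn3 (3809 TPM), Tpm1 (3631 TPM), Myoz1 (2537 TPM) and Mybpc2 (1809 TPM) followed at ranks 15, 17, 23 and 31. Smtnl1 was far lower, at 44.9 TPM and rank 1381. Together the genes took between 6.60% ± 0.942 (SD, n = 4, NT siRNA) and 8.71% ± 0.245 (n = 4, LLC control) of a library's TPM.

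**Figure D1:**
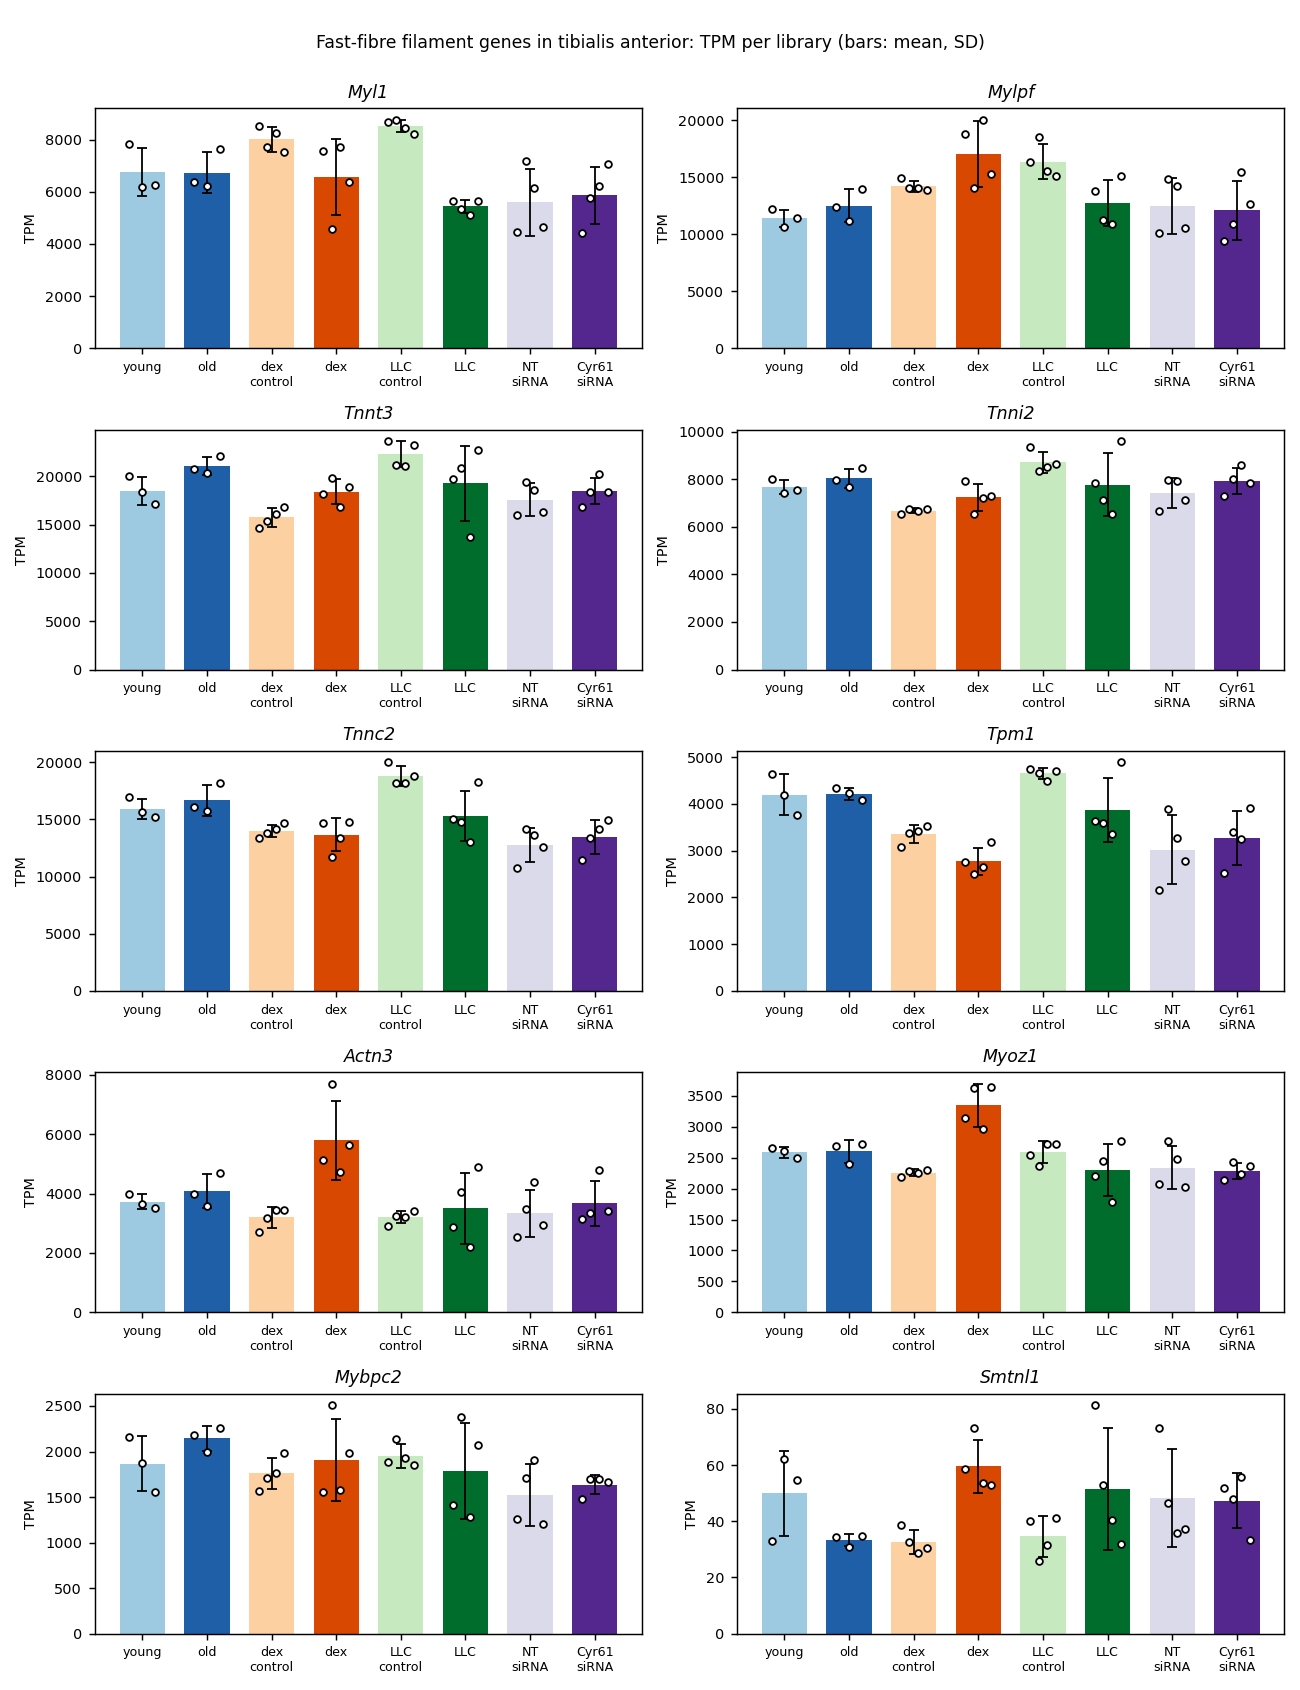
TPM (vertical axes, from 0) of each gene in the 8 groups; points are libraries, bars are group means and error bars are SD. Actn3, Myoz1 and Smtnl1 lie above their control in the 4 dexamethasone libraries, and Myl1 lies below its control in the 4 LLC libraries.

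Across the groups most genes kept within a narrow range. The highest group mean stood above the lowest by 1.30 times for Tnni2, 1.41 times for Mybpc2, 1.42 times for Tnnt3 and 1.47 times for Tnnc2, and by up to 1.81 times for Actn3 and 1.83 times for Smtnl1. LLC control held the highest mean of the 3 troponin genes, of Tpm1 and of Myl1 (22286, 8701, 18764, 4649.9 and 8519 TPM for Tnnt3, Tnni2, Tnnc2, Tpm1 and Myl1). Dexamethasone held the highest mean of Mylpf (17031 TPM), Actn3 (5796 TPM), Myoz1 (3348 TPM) and Smtnl1 (59.6 TPM), and old muscle that of Mybpc2 (2144 TPM). When the 8 groups were ordered by mean, the values of neighbouring groups overlapped in 7 of 7 pairs for 6 of the genes. In the 4 others 1 pair was apart: Actn3 and Myoz1 with dexamethasone above old, Tpm1 in LLC control above old, and Mylpf in LLC control above the dexamethasone control. These orders span separate experiments and are a description. Because whole tissue was sequenced, fewer fibres of a type and less RNA per fibre cannot be told apart in any of these values.

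In the GENCODE M21 annotation of mm10, 4 of the 10 genes lie on chromosome 7: Mybpc2 (chr7:44501699-44524656), Mylpf (chr7:127208890-127214298), Tnni2 (chr7:142441808-142444410) and Tnnt3 (chr7:142498836-142516009). The last 2, fast troponin I and fast troponin T, are on the same strand, with 54426 bases from the end of the first to the start of the second. Tnnc2 (chr2:164777161-164779967) and Smtnl1 (chr2:84811176-84822652) share chromosome 2. The others are Myl1 (chr1:66924295-66945404), Tpm1 (chr9:67022590-67049406), Actn3 (chr19:4861216-4877909) and Myoz1 (chr14:20649107-20656540). Tnnc2, Tnnt3 and Mybpc2 overlap a gene on the opposite strand (Ube2c, Prr33 and Gm44646), and whether reads were counted by strand is not given in the labels. Myl1 makes 2 known light chain forms from alternative promoters and Tnnt3 has 27 annotated transcripts; a gene-level value does not separate them.

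With dexamethasone, the Z-disc genes Actn3 and Myoz1 and the regulator Smtnl1 rose in TPM, the other genes did not pass the test in either direction, and Tpm1 fell once the libraries were scaled to the typical gene. All 10 genes were tested, with limma on log2(TPM + 1) and p-values adjusted by Benjamini-Hochberg over all 11944 genes tested; 3 of the 10 were called higher and 0 lower at an adjusted p under 0.05. The same rule called 35.9% of the 11944 genes higher and 1.51% lower, so a count of 3 in 10 is near the background. The median change of the 10 genes was 0.17 on the log2 scale, below the 0.33 of all genes tested. After median-of-ratios scaling 0 of the 10 were higher and 1 was lower, where 4.44% of genes were higher and 4.71% lower. The median was then -0.20, against 0.02 for all genes.

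Actn3, which cross-links actin at the Z-disc of fast glycolytic fibres, read 5125, 7698, 4717 and 5644 TPM with dexamethasone and 2716.5, 3194, 3446 and 3445 TPM in the control. The lowest treated library lay above the highest control, and dexamethasone 2 was the highest. The difference was 0.84 on the log2 scale (SE 0.16, limma adjusted p = 0.00522), and 0.47 (limma adjusted p = 0.0983) after scaling. Myoz1 read 3149, 3634.5, 2962 and 3648 TPM with dexamethasone and 2190.0, 2292, 2246 and 2309 TPM in the control, again without overlap. Its difference was 0.56 (SE 0.10, limma adjusted p = 0.00453), which scaling reduced to 0.19 (limma adjusted p = 0.449), close to the typical gene. Smtnl1 stood at 58.7, 73.2, 53.6 and 52.8 TPM with dexamethasone and at 38.8, 32.6, 28.7 and 30.5 TPM in the control. Here too no value overlapped, and the difference was 0.85 (SE 0.13, limma adjusted p = 0.0028), or 0.49 (limma adjusted p = 0.0800) after scaling. In all, 34.3% of genes lay wholly above their controls in this comparison. As deposited, each of the 3 calls held in 8 of 8 fits that left out a library; on the scaled values each held in 0 of 8. Other ways of setting aside the library total kept some of the calls. Without mitochondrial genes Smtnl1 passed (0.58, limma adjusted p = 0.0271) and Actn3 and Myoz1 did not (adjusted p of 0.0526 and 0.157). With quantile normalization Actn3 (0.67, limma adjusted p = 0.0327) and Myoz1 (0.49, adjusted p = 0.00446) passed and Smtnl1 did not (adjusted p = 0.0567). Scaling with the replicate number as a block, chosen after seeing the data, left Smtnl1 called (0.49, limma adjusted p = 0.00994). The shares of all genes called by direction under these settings are not given, so these calls are not set against a background.

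Tpm1, which codes for alpha-tropomyosin, lay on the other side of the typical gene. It stood at 2751, 2499, 2648 and 3182 TPM with dexamethasone and at 3087, 3377, 3418 and 3525 TPM in the control. Only dexamethasone 4 reached into the control range. The difference was -0.28 as deposited (SE 0.10, limma adjusted p = 0.0566) and -0.65 after scaling (SE 0.16, limma adjusted p = 0.0364). As deposited it passed the test without dexamethasone 4 (-0.35, limma adjusted p = 0.0463), and the scaled call held in 2 of 8 fits that left out a library, those without dexamethasone 1 or dexamethasone 2, with adjusted p from 0.0162 to 0.109 over the 8. It was also called lower without mitochondrial genes (-0.55, limma adjusted p = 0.0274) and with quantile normalization (-0.30, adjusted p = 0.0364). Here too no share of all genes by direction is given.

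The light chains lay on opposite sides of their controls as deposited. Myl1 read 7564, 4580.2, 7725 and 6373 TPM with dexamethasone against 8538, 7716, 8265 and 7521 TPM in the control (difference -0.32, limma adjusted p = 0.129; scaled -0.68, adjusted p = 0.126). Mylpf read 18826, 14014, 20039 and 15246 TPM against 14922, 14027, 14056 and 13851 TPM (difference 0.25, limma adjusted p = 0.146; scaled -0.12, adjusted p = 0.800). Neither passed the test, and both overlapped their control, through dexamethasone 1 and dexamethasone 3 for Myl1 and dexamethasone 2 for Mylpf. Without dexamethasone 2, Mylpf was called higher as deposited, by 0.33; without dexamethasone 1, Myl1 and Tnnc2 were called lower on the scaled values, by -0.86 and -0.54. The ratio of regulatory to essential light chain, which does not depend on the library total, ran from 2.39 to 3.06 with dexamethasone and from 1.70 to 1.84 in the control, with means of 2.63 ± 0.296 (SD, n = 4) and 1.78 ± 0.0646 (n = 4). The ratio was put together after the values were seen and is given with no test.

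The fast troponin genes and Mybpc2 did not pass the test. Tnnt3 read between 16780.5 and 19799.8 TPM with dexamethasone and between 14647 and 16855 TPM in the control, a difference of 0.23 (limma adjusted p = 0.109). Tnni2 differed by 0.11 (adjusted p = 0.334, limma) and Tnnc2 by -0.04 (adjusted p = 0.757, limma). Mybpc2 differed by 0.09 (limma adjusted p = 0.616) and spread widely, from 1554 to 2509 TPM in the treated libraries. Scaled, these 4 genes differed by -0.14, -0.25, -0.41 and -0.27, and none passed the test.

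**Figure D2:**
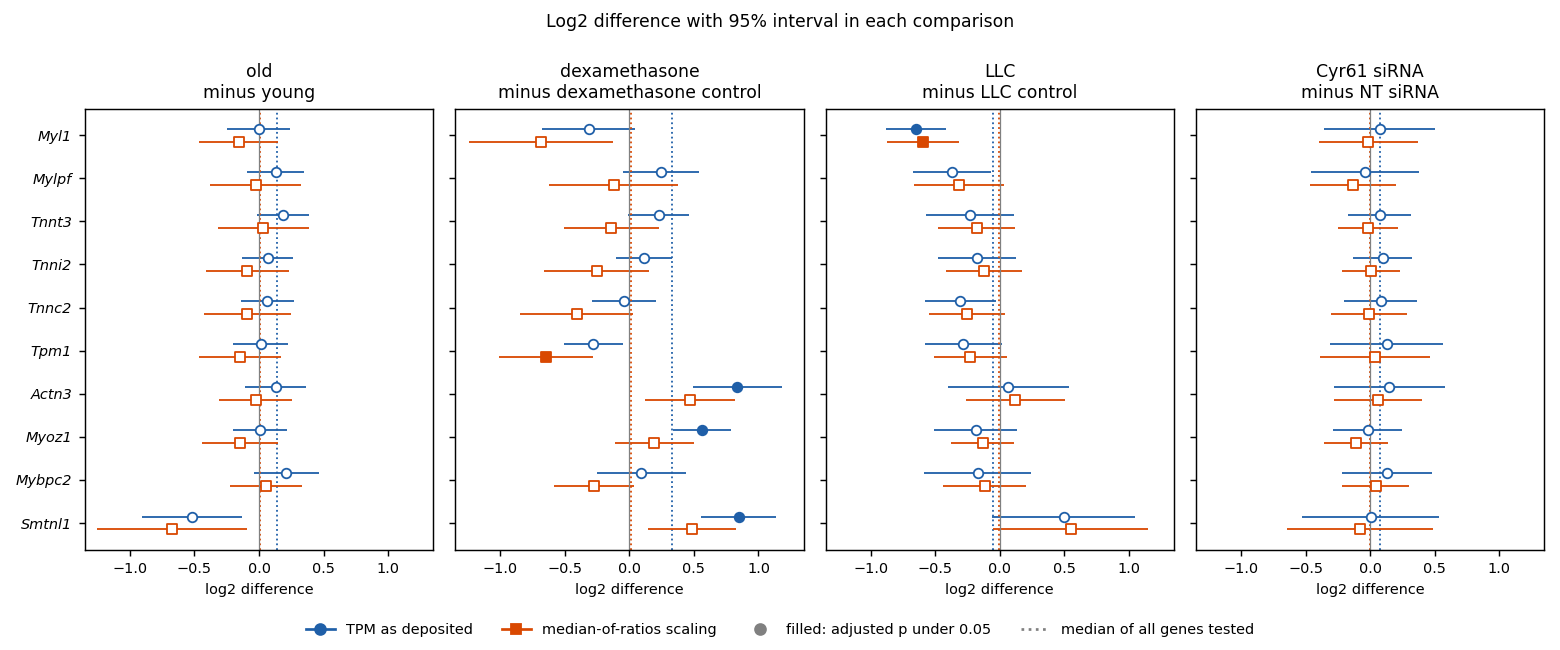
Log2 difference of each gene in the 4 comparisons with its 95% interval, as deposited (circles) and after median-of-ratios scaling (squares); filled symbols have an adjusted p under 0.05 and dotted lines mark the median of all genes tested. With dexamethasone 3 circles and 1 square are filled, under LLC Myl1 is filled on both scales, and the age and siRNA panels hold no filled symbol.

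Slow troponin T, I and C, the paralogs of the fast troponins, rose with dexamethasone: Tnnt1 from 19.6 ± 7.30 to 70.4 ± 20.01 TPM (SD, n = 4 each), Tnni1 from 14.5 ± 8.25 to 62.8 ± 22.4 TPM and Tnnc1 from 15.9 ± 7.17 to 71.3 ± 25.1 TPM. None of the 3 overlapped its control, where 34.3% of all genes lay wholly above theirs. On the log2 scale the rises were 1.81, 2.11 and 2.12, with limma adjusted p of 0.00166, 0.00278 and 0.00215, and they passed after scaling as well (1.45, 1.76 and 1.77, adjusted p of 0.0129, 0.0159 and 0.0129). Of the 10 paralogs, Actn2 and Smtnl2 included, 6 were called higher and 0 lower as deposited, and 3 higher and 2 lower after scaling. Of all genes, 35.9% were called higher and 1.51% lower as deposited, and 4.44% and 4.71% after scaling. The median paralog changed by 0.39 as deposited, against 0.33 for all genes, and by 0.03 against 0.02 after scaling. Myoz2 (0.99, limma adjusted p = 0.00613), Tpm3 (0.42, adjusted p = 0.0425) and Mybpc1 (0.36, adjusted p = 0.0361) were called as deposited only. Myl3 (-1.16, limma adjusted p = 0.0319) and Smtnl2 (-0.69, adjusted p = 0.00405) were called lower on the scaled values only. Actn2 and Myl2 differed by 0.08 and 0.11 and passed on neither scale.

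The fast troponin genes remained far more abundant than the slow. By geometric means within libraries, Tnnt3 exceeded Tnnt1 by 837 times in the control and 269 times with dexamethasone, Tnni2 exceeded Tnni1 by 512 and 120.2 times, and Tnnc2 exceeded Tnnc1 by 944 and 199.7 times. Tpm1 exceeded Tpm3 by 195 times in the control and 118 times with dexamethasone, and Mybpc2 exceeded Mybpc1 by 1.89 and 1.57 times, in both cases without overlap. Actn3 went the other way against Actn2, from 6.61 to 11.2 times, and Smtnl1 rose from 0.357 to 0.816 times Smtnl2. The ratios of Myl1 to Myl3, Mylpf to Myl2 and Myoz1 to Myoz2 overlapped between the groups. Such ratios are free of the library total.

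**Figure D3:**
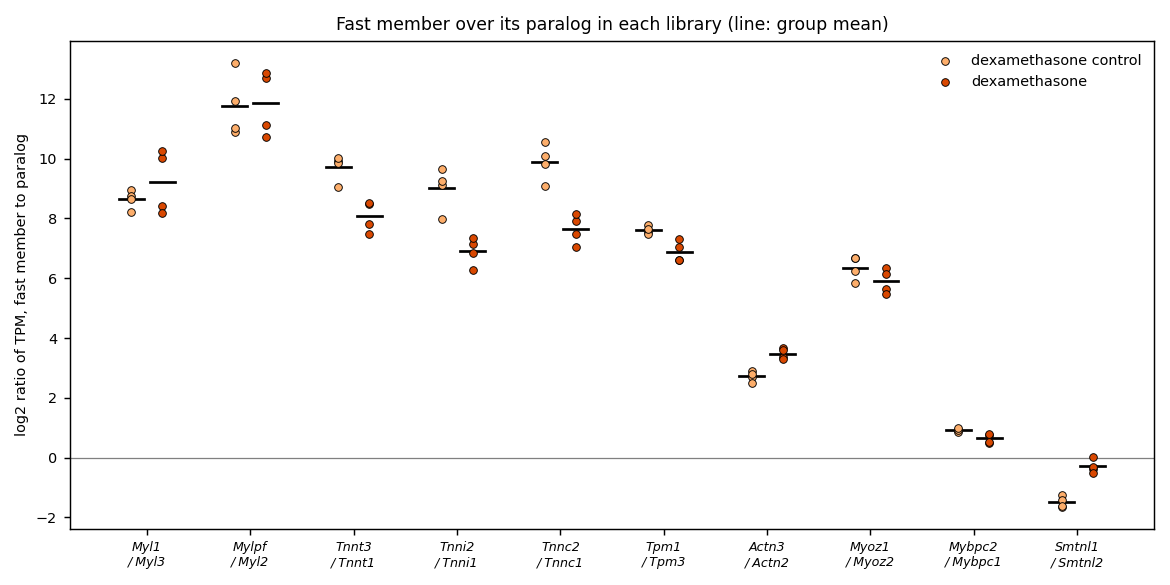
Log2 ratio of TPM of each gene to its paralog in the 4 control and 4 dexamethasone libraries. Points are libraries, lines are group means and 0 marks equal levels. The 3 troponin ratios, Tpm1 to Tpm3 and Mybpc2 to Mybpc1 lie lower without overlap with dexamethasone, while those of Actn3 and Smtnl1 lie higher without overlap.

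Other sarcomere genes were read beside them from lists drawn up by name, and their counts stand against the 35.9% of all genes called higher as deposited and 4.44% after scaling. Of 7 developmental isoforms, 6 rose and 0 fell, among them the neonatal and embryonic myosins Myh8 (2.39, limma adjusted p = 0.00182) and Myh3 (2.29, adjusted p = 0.00512), cardiac troponin T Tnnt2 (2.32, adjusted p = 0.00103) and the embryonic light chain Myl4 (1.81, adjusted p = 0.00368); 5 rose after scaling, these 4 included. Of 17 other fast-fibre genes, which included the thin filament gene Tmod4 beside fast myosins, calcium handling and glycolysis, 1 rose and 1 fell. Tmod4, which caps thin filaments, rose by 0.29 (limma adjusted p = 0.0276), and the glycolytic enzyme Pgam2 differed by -0.45 (adjusted p = 0.0195). Scaled, 0 of these 17 were higher and 3 lower, with Pgam2 at -0.82 and Tmod4 at -0.08. A list of 24 genes was named for sarcomere genes of all fibres, which was not checked gene by gene. Of these, 11 rose and 0 fell, a share not far above that of all genes. The largest rises were of Myom3 (1.32), Xirp1 (1.08), the thin filament nucleator Lmod2 (0.91) and filamin C, Flnc (0.81). After scaling 2 were higher and 1 lower, with Myom3 at 0.98 (limma adjusted p = 0.0242). Of 26 transcription regulators of fibre type, 6 rose and 0 fell, a share below that of all genes, the largest being myogenin, Myog (1.64, limma adjusted p = 0.00161; scaled 1.29, adjusted p = 0.00814), then Myod1 (0.84), Hdac4 (0.73) and Myf6 (0.65); after scaling 1 was higher and 1 lower.

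Markers of other cells were read in the same libraries. Their counts stand against 35.9% of all genes called higher and 1.51% lower as deposited, and 4.44% and 4.71% after scaling. All 7 macrophage markers were called higher (5 after scaling), and their summed level ran from 908 to 2238 TPM with dexamethasone and from 212 to 383 TPM in the control, with none at 0. Of 6 smooth muscle and pericyte markers 5 were higher (0 after scaling), with sums of 364 to 502 TPM against 262 to 334 TPM. Endothelial markers were lower for 1 of 8 (6 of 8 after scaling), and red cell markers were called in neither direction. Both lymphocyte markers that passed the filter were lower on both scales, Igkc by -2.80 and Ighm by -1.18 as deposited. Of 4 neutrophil markers tested, S100a8 (3.19) and S100a9 (1.48) were higher and Retnlg (-3.09) lower, on both scales. Of 4 adipocyte markers 3 were higher (1 after scaling), and of 5 tendon markers 2 were higher and 1 lower (1 and 1 after scaling). Progenitor, Schwann cell and satellite cell markers were higher for 1 of 6, 1 of 5 and 1 of 3, and for 0 after scaling. The marker genes named were chosen after their values were seen. The part of these cells in the values of the fast genes was not tested.

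Under LLC cancer the essential light chain Myl1 fell, and no other of the 10 genes passed the test. The libraries read 5659, 5331, 5127 and 5635 TPM under LLC and 8660.0, 8759, 8438 and 8218 TPM in the control. The groups lay far apart, and the spread within each was small, with means of 5438 ± 255 and 8519 ± 241 TPM (SD, n = 4 each). The difference was -0.65 on the log2 scale (SE 0.11, limma adjusted p = 0.0201), and -0.59 (SE 0.12, limma adjusted p = 0.0386) after scaling. Of the 10830 genes tested, 0.886% were called lower and 1.18% in either direction as deposited, and 1.57% were called lower after scaling. In fits that left out a library, the fall ranged from -0.66 to -0.53 after scaling. As deposited its size hardly depended on any library, ranging from -0.67 to -0.62. The call did: it was lost without LLC control 2, LLC control 3, LLC control 4 or LLC 1 (adjusted p of 0.0637, 0.0596, 0.0819 and 0.0574), and after scaling it held in 1 of 8 such fits, the fit without LLC 3. It was also lost with no filter on low genes (adjusted p = 0.161) and with quantile normalization (adjusted p = 0.0604).

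Mylpf stood at 13759.9, 11251, 10931 and 15064 TPM under LLC and at 16322, 18532, 15531 and 15112 TPM in the control. Every LLC library lay below every control, LLC 4 only just, as 6.13% of all genes did. The difference of -0.37 did not pass (limma adjusted p = 0.261; scaled -0.32, adjusted p = 0.288). The regulatory to essential ratio was 2.34 ± 0.268 (SD, n = 4, from 2.11 to 2.67) under LLC and 1.92 ± 0.132 (n = 4, from 1.84 to 2.12) in the control, overlapping at the ends.

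Most of the remaining genes leaned lower without passing. Tnnc2 differed by -0.31 (limma adjusted p = 0.318), Tpm1 by -0.28 (adjusted p = 0.415), Tnnt3 by -0.23 (adjusted p = 0.589), Myoz1 by -0.19 (adjusted p = 0.665), Tnni2 by -0.18 (adjusted p = 0.659) and Mybpc2 by -0.17 (adjusted p = 0.793). LLC 4 was the highest of its group for both Tnni2 (9597 TPM) and Tpm1 (4884 TPM), above every control in each case. Actn3 (2871, 4047, 2207 and 4881 TPM under LLC; 2921 to 3407 TPM in the control) differed by 0.07 (limma adjusted p = 0.949), its LLC libraries lying on both sides of the control range. Smtnl1 read 81.3, 52.8, 40.3 and 31.8 TPM under LLC and 40.3, 25.9, 31.4 and 41.2 TPM in the control, a difference of 0.50 (limma adjusted p = 0.443) with a wide spread. The median of the 10 genes was -0.21, against -0.05 for all genes tested, and -0.16 against -0.01 after scaling.

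Around them, 0 of the 10 paralogs were called under LLC, nor were any of the 4 other lists of sarcomere genes and regulators as deposited; after scaling, 2 of 17 other fast-fibre genes and 2 of 24 sarcomere genes were lower. Smtnl2, the paralog of Smtnl1, came closest, at -0.64 (limma adjusted p = 0.134; scaled -0.58, adjusted p = 0.0558). The muscle fibre markers summed to 40218 ± 7693 TPM under LLC and 47065 ± 3904 TPM in the control (SD, n = 4 each), and 0 of 5 were called. Red cell markers summed to between 717 and 7806 TPM under LLC and between 622 and 792 TPM in the control, with 0 of 5 called and none at 0. Macrophage markers ran from 36.4 to 177 TPM against 132 to 288 TPM, with 0 of 7 called. The counts here stand against 1.18% of all genes called in either direction and 0.886% lower as deposited, and 1.57% lower after scaling. The share called higher after scaling is not given. Single markers of other cells were called on both scales. The neutrophil gene Csf3r was higher (0.94, 1 of 4 tested). Ighm of lymphocytes (-1.50, 1 of 2) and Tnmd of tendon cells (-1.28, 1 of 5) were lower. Neutrophil markers summed to between 35.0 and 98.7 TPM under LLC and between 1.22 and 91.5 TPM in the control, lymphocyte markers to between 15.4 and 36.9 TPM against 43.0 to 64.2 TPM, and tendon markers to between 37.8 and 108 TPM against 85.0 to 120.0 TPM. After scaling 1 of 6 progenitor markers was lower and 1 of 8 endothelial markers higher. The part of these cells in the fall of Myl1 was not tested. The library LLC 3, with the highest mitochondrial share, read the lowest Myl1, and without it the difference was -0.62 (limma adjusted p = 0.0123).

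Between mice of 24 and 6 months none of the 10 genes passed the limma test (0 of 10 as deposited and 0 of 10 after scaling, and 1 of 10 at an unadjusted p under 0.05 on each scale), where 0.171% of 10511 genes were called. The whole comparison called 18 genes, and 0 or 0.0% after scaling (1174 and 1391 at an unadjusted p under 0.05). Smtnl1 was the exception at the unadjusted level: 34.6, 30.9 and 34.8 TPM in old muscle and 33.0, 62.3 and 54.7 TPM in young. The young library 1 lay within the old range, and the other young libraries lay above it. The difference was -0.52 (SE 0.18, limma adjusted p = 0.332; scaled -0.67, adjusted p = 0.354), and without young 1 it was -0.79 and passed (limma adjusted p = 0.00238), though not on the scaled values. Of the 10 genes, Tnnt3 alone had groups that did not overlap, at 20718, 20306 and 22074 TPM in old muscle and 19987, 18343 and 17117 TPM in young, as 15.5% of all genes lay higher without overlap. Its difference was 0.19 (limma adjusted p = 0.465), and 0.03 after scaling. The other 8 genes differed by -0.00 to 0.21, with 95% intervals from -0.24 to 0.46. Of the paralogs, 0 of 10 were called.

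None of the 10 genes passed the test between Cyr61 siRNA and NT siRNA. Their differences ran from -0.04 for Mylpf to 0.15 for Actn3, and the 95% intervals reached from -0.52 to 0.58. By limma 0 of 10 were called (lowest adjusted p = 0.999, and 0 of 10 at an unadjusted p under 0.05), where 0.0% of 11006 genes were called on either scale (109 at an unadjusted p under 0.05, 184 after scaling). The groups of every one of the 10 genes overlapped, while 0.99% of genes tested did not. Spread within a group was wide: Myl1 read 4403, 5760.5, 6222 and 7052 TPM with Cyr61 siRNA and 4441, 7166, 6130 and 4637 TPM with NT siRNA, and Tpm1 ran from 2159.6 to 3881 TPM within NT siRNA alone. The interval of Smtnl1 was the widest of the 10, from -0.52 to 0.54, and differences within such intervals were not detectable here.

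The responses to the 3 stimuli were compared directly in a fit of 22 libraries (12392 genes). As deposited, the response to LLC was lower than that to dexamethasone for Myoz1 by -0.75 (SE 0.16, limma adjusted p = 0.00387), for Actn3 by -0.77 (SE 0.26, limma adjusted p = 0.0347) and for Mylpf by -0.62 (SE 0.18, limma adjusted p = 0.0194). These 3 of 10 stood where 26.5% of all genes were called lower and the median gene differed by -0.37. After scaling, 0 of the 10 differed by limma, where 6.55% of genes were called at an adjusted p under 0.05. At an unadjusted p under 0.05, 2 of 10 did, with no share of all genes at that level given. The call of Actn3 held in 14 of 22 fits that left out a library, those of Myoz1 and Mylpf in 22 of 22. Myl1, the gene that fell under LLC, was not shown to respond differently there: its responses differed by -0.33 as deposited (limma adjusted p = 0.151) and 0.10 after scaling (adjusted p = 0.882). Between old age and dexamethasone, Smtnl1 differed by -1.36 (SE 0.34, limma adjusted p = 0.0337), where 1.3% of genes were called lower, and by -1.15 (adjusted p = 0.119) after scaling, where 2.92% of genes were called. That call held in 13 of 22 fits that left out a library. Between LLC and old age 0 of 10 differed by limma, where 0.0484% of genes were called, and 0 of 10 after scaling, where 0.226% were. At an unadjusted p under 0.05 the counts were 5 of 10 as deposited and 1 of 10 after scaling. No share of all genes at that unadjusted level is given for the responses, so these counts have no background. The shares above are of adjusted calls.

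The balance among the 10 genes was read within each library, free of its total. As a share of their summed TPM, Tnnt3 made up between 22.7% and 27.0% in the group means, Tnnc2 between 17.7% and 21.9% and Mylpf between 15.7% and 22.1%. With dexamethasone Actn3 took 7.60% ± 2.02 (SD, n = 4) against 4.62% ± 0.413 (n = 4) in the control, and Myoz1 4.37% ± 0.563 against 3.26% ± 0.0661. Myl1 took 8.51% ± 1.67 against 11.6% ± 0.848, and Tpm1 3.61% ± 0.345 against 4.84% ± 0.188. Under LLC the share of Myl1 was 7.66% ± 0.947 against 9.79% ± 0.285 (SD, n = 4 each), while that of Tpm1 was 5.37% against 5.34%. Within the troponin complex the ratio of Tnnc2 to Tnni2 ran from 1.58 to 2.18 over the 30 libraries. With dexamethasone it was 1.79 to 2.03, below the 2.04 to 2.17 of the control. Under LLC it was 1.90 to 2.07, below the 2.14 to 2.18 of the control. Old and young muscle overlapped, as did the siRNA groups, and the NT siRNA libraries (1.61 to 1.77) lay below the dexamethasone ones. The ratio of Tnnt3 to Tnni2 overlapped with dexamethasone (2.29 to 3.03 against 2.24 to 2.50) and under LLC (2.11 to 2.92 against 2.48 to 2.69). It overlapped between the siRNA groups too, but was higher in old muscle (2.60 to 2.65) than in young (2.26 to 2.50). These ratios too are given with no test, and how often other gene pairs separate was not tested.

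**Figure D4:**
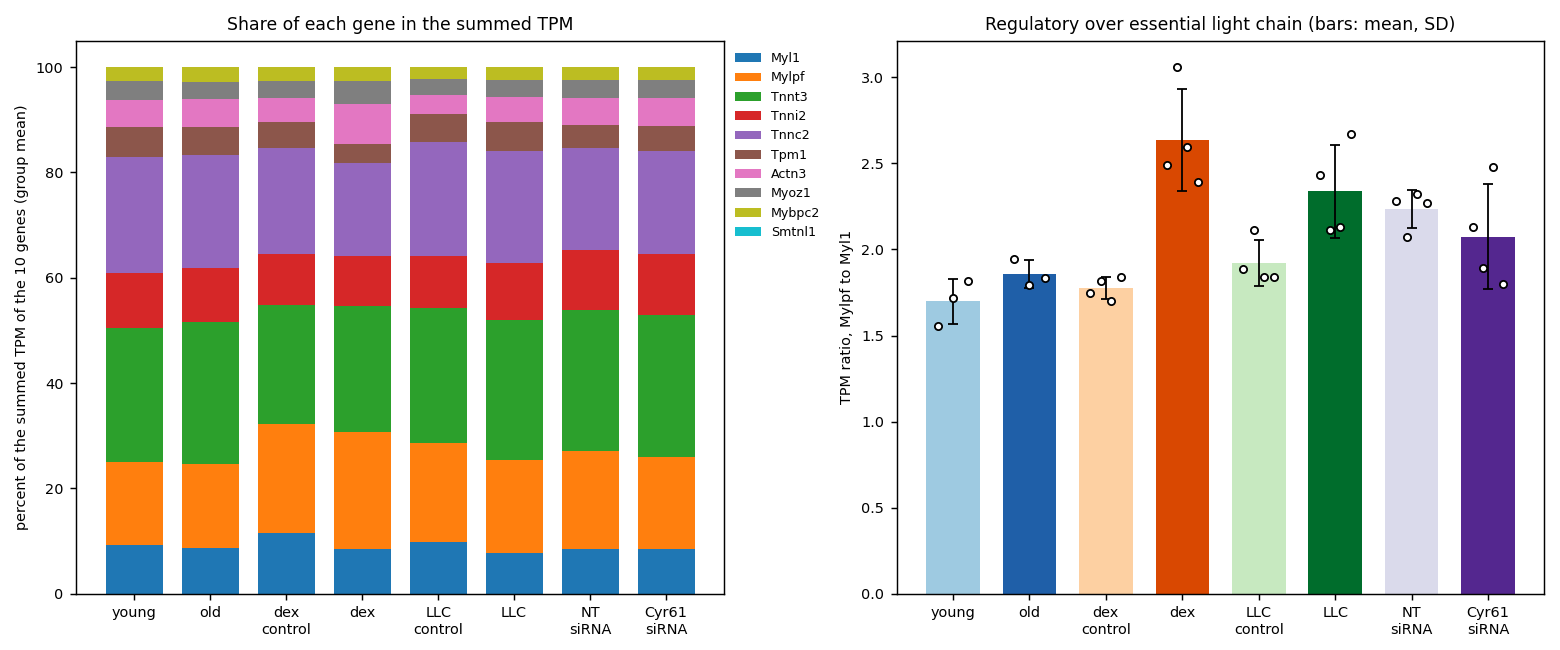
Left, the share of each gene in the summed TPM of the 10 genes, as percent, by group mean; right, the TPM ratio of Mylpf to Myl1, with points for libraries and bars for the mean and SD. The dexamethasone column holds the widest Actn3 band, and its 4 ratios lie between 2.39 and 3.06, above those of its control.

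Within groups, the genes split into those that moved together and those that did not. After scaling and centring on group means, the 30 libraries gave a Pearson r of 0.92 for Tnni2 and Tnnc2, 0.86 for Myl1 and Mylpf and also for Tnnc2 and Tpm1. Tnni2 had the highest median r with the 9 others (0.71), followed by Tnnc2 (0.70) and Tpm1 (0.63). Actn3 (0.12), Mybpc2 (-0.08) and Smtnl1 (-0.13) stood apart, and Smtnl1 and Mybpc2 ran against each other (r = -0.53). These are descriptions over libraries that share their scaling factors. Among 6698 other genes with a mean of at least 5 TPM, those whose centred values were most like the mean of the 10 included Tmod4 (r = 0.83), Spag7 (0.82), Cystm1 (0.82) and Pfdn1 (0.82), over 30 libraries. Of these Tmod4 is itself a thin filament gene, tropomodulin-4.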

How the data were processed

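The authors deposited 1 table of TPM, with 1 column per library and 1 line per gene symbol; no column was left unused. The genome build was mm10, per the submitters' processing notes. Which aligner, counter, strand setting and annotation were used is not stated in the labels or notes. Per the labels' protocols, RNA was extracted with Trizol and libraries were made with a stranded TruSeq mRNA kit. Each column sums to 1000000, so a change in a few abundant genes shifts all others. With GENCODE M21 exon lengths, 79.7 to 82.3% of low values (up to 20 reads) were whole reads within 0.05, which puts depth at roughly 30.4e6 to 61.8e6 reads per library, and at 922 to 3677 reads for Smtnl1; the lengths of the other genes did not match, so these totals are approximate and cover counting error only.

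Groups came from the labels. For each comparison limma 3.58.1 in R 4.3.3 was fitted with a variance trend to log2(TPM + 1), keeping genes that reached 1 TPM in a number of libraries no lower than the size of the smaller group; all 10 genes passed in every comparison. A log2 difference on this scale understates the change of low genes. Genes were called at a two-sided Benjamini-Hochberg adjusted p under 0.05 over all genes tested, and responses were compared by interaction terms over 22 libraries. Alternatives were a pseudocount of 0.1, filters of 0 and 5 TPM in place of 1, removal of mitochondrial genes, median-of-ratios scaling, quantile normalization, all 8 groups in 1 fit, a replicate block and leaving out each library; scaling together with the block or with a library left out was chosen after seeing the data. The pipeline was tested on simulated data. The 10 genes and the lists were chosen with earlier results of these data known. The text names the 10 genes, their paralogs, up to 4 called genes per other list and direction with the largest change, and the 5 genes most like the mean of the 10, of which 1 is not reported here. Python 3.11.15 with numpy 2.4.6, pandas 2.3.3 and matplotlib 3.10.9 made the tables and figures.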

Additional observations from a re-analysis of the deposited data

Results flagged for a closer look

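In groups of 4 libraries, a single value lay far from the others for 2 of 60 combinations of gene and group tested, where chance gives about 1 in 20. Actn3 stood at 4797 TPM in Cyr61 siRNA 3, against 3141 to 3402 TPM in the others of its group. Mybpc2 stood at 1476 TPM in Cyr61 siRNA 1, against 1669.8 to 1699.6 TPM in the others. The response to LLC was lower than the response to dexamethasone for Mylpf (-0.62 on the log2 scale), Actn3 (-0.77) and Myoz1 (-0.75) by the limma interaction test as deposited, and for none of the 3 after median-of-ratios scaling. The response to old age was lower than the response to dexamethasone for Smtnl1 (-1.36) as deposited, and did not pass after scaling.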

How the results depend on the processing

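Of 960 refitted values for the 10 genes in the 4 comparisons, 46 lost and 12 gained their call. Only genes called in the main fits, 3 with dexamethasone and 1 under LLC, could lose a call. The 46 losses all fall on refits of these genes and are not to be read as a share of 960. In all, 167 values changed sign without a call on either side, and 0 reversed a call. The cause was not tested unless stated. For dexamethasone, 3 genes were called all higher, and 1 after median-of-ratios scaling (lower). There were 2 without mitochondrial genes or with scaling and the block (1 higher, 1 lower each), 3 with quantile normalization (2 higher, 1 lower), 4 with a filter of 5 TPM (3 higher, 1 lower), 3 to 4 when a library was left out and 0 to 3 with scaling as well. For LLC, 1 gene was called, and 0 with no filter, with quantile normalization or with scaling and the replicate block, and 0 to 1 with a library left out, scaled or not. For old age, 0 genes were called, and 0 to 1 with a library left out (1 without young 1). For LLC against dexamethasone responses, 3 were called, and 1 with no filter, 0 after scaling, without mitochondrial genes, with quantile normalization and with scaling and the block, 2 to 5 with a library left out and 0 when scaled too. For old age against dexamethasone, 1 was called, and 0 with a pseudocount of 0.1, no filter, a filter of 5 TPM, scaling, without mitochondrial genes, quantile normalization, all 8 groups in 1 fit and scaling with the block, 0 to 2 with a library left out and 0 to 1 when scaled too. Without mitochondrial genes the 10 genes took 14.7% (young), 15.2% (old), 13.5% (dexamethasone control), 12.4% (dexamethasone), 16.1% (LLC control), 14.7% (LLC), 13.5% (NT siRNA) and 13.4% (Cyr61 siRNA) of the TPM left.

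Over all genes, dexamethasone called 4290 higher and 180 lower as deposited, and 530 and 563 after scaling, 985 in all without mitochondrial genes, 1229 with quantile normalization and 1918 to 8715 with a library left out (8715 without dexamethasone 1). LLC called 128, and 8 with no filter, 81 with a filter of 5 TPM, 351 after scaling, 541 without mitochondrial genes, 374 with quantile normalization, 502 with the block and 19 to 361 with a library left out (361 without LLC 3). Old age called 18, and 0 with no filter or scaling, 5 without mitochondrial genes, 1 with quantile normalization, 5 with all 8 groups, 152 with the block and 0 to 274 with a library left out. Same-numbered libraries shared deviations in part: r was positive in every such pair, from 0.02 to 0.50 over the 4 experiments. Other pairings took both signs, from -0.57 to 0.57. Libraries were most like their own number in 15 of 30 cases, with 3 or 4 candidates each. The labels do not say that the numbers mark pairs, so the main fits left them out. Whether same-numbered libraries shared a batch was not tested. The replicate block left the counts of the 10 genes at 3, 1, 0 and 0 for dexamethasone, LLC, old age and siRNA. Over all genes it moved the calls from 128 to 502 for LLC and from 18 to 152 for old age. Smtnl1 rests on the fewest reads, and with 3 or 4 libraries a group the spread between libraries, not counting error, limits every value.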
